A study of Mus musculus and Homo sapiens with 9 samples.

Results

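The genes described here are the transcription factors of 11 developmental families, namely the Hox, Pax, Sox, Tbx, Lhx, Dlx, Gata, Irx and Nkx genes, the sine oculis homeobox genes and the forkhead genes Foxa to Foxl. They were chosen by gene symbol among the protein-coding genes of RefSeq GRCm38.p6 (the mm10 build), leaving out Sox10 and Pax3. This gave 151 of 21883 protein-coding genes on placed chromosomes. The study located thymine DNA glycosylase (TDG) and p53 by chromatin immunoprecipitation and sequencing (ChIP-seq). Of its 9 samples, peak lists of 2 were analysed. Both were made from the mouse melanoma line B16 with the genotype Tdg HA knockin, so that TDG is made with an HA tag. These are the samples to which the series assigns the lists, although the names of the peaks begin with B3 in the HA list and with BWT-P in the p53 list, and the labels do not explain these prefixes. In 1 library chromatin was pulled down with the HA antibody and in the other with the p53 antibody, and no drug treatment is given for either. The other 7 samples, among them the HA antibody in untagged B16 cells, the input and IgG libraries and the p53 antibody in Trp53 KO cells, were not analysed here. There was therefore no replicate, the dependence of the HA peaks on the tag was not tested, and no difference below carries a test.

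TDG starts base excision repair at thymine mispaired with guanine and also cuts out some of the oxidised forms of methylcytosine made by TET enzymes. Mice without TDG die as embryos with aberrant methylation at CpG-rich promoters of developmental genes. The families described here set body axis, organ and cell fate. Hox genes lie in 4 clusters and pattern the body axis, and the other families act in organs such as eye, heart, forebrain, skeleton and gut. In most differentiated cells, such genes are held silent in CpG-rich chromatin by Polycomb complexes, which Trithorax proteins oppose.

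A TDG summit, the base with the highest signal of a deposited peak, lay within 1 kb of either end of only 5 of the 151 genes (3.31%, exact binomial 95% interval 1.08 to 7.56%). Among all protein-coding genes, 12.3% had such a summit, and among the 20475 other protein-coding genes on the same 19 chromosomes 12.6% did. Peak density varied between chromosomes, so the share of the other genes was also weighted to the number of developmental genes on each chromosome. That weighted share was 14.8%, or 22.4 genes where 5 were counted, a ratio of 0.223. The interval covers counting error only and treats genes as independent, which neighbouring genes are not. When genes within 50 kb of each other were joined, the 151 genes made 108 loci, of which 4 (3.70%) held a gene with a TDG summit at an end. The other genes were not joined in this way, so the share of loci has no background, and the shares per gene above do not serve as one.

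The 5 genes were Tbx2, Hoxa3, Hoxa10, Sox11 and Tbx10. At Hoxa3 and Sox11 the summit lay at the annotated start, and at Hoxa10 it lay at the outermost of 2 RefSeq starts. The Tbx10 summit lay past the far end of the gene, and for Tbx2 no strand was at hand. The promoter sequences of 3 of them are shown here beside a paralogue with no summit that close. This lets the sequence before a start near a TDG summit be compared with that of a close relative. Each stretch is the 250 bases before the outermost RefSeq start (GRCm38.p6), 5′ to 3′ on the gene's strand, with every CG in capitals. Only that of Hoxa3 holds the summit itself, since the summit lay 344 bases before the Sox11 start and 343 bases inside Hoxa10. The paralogues were picked after the values had been seen.

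Hoxa3: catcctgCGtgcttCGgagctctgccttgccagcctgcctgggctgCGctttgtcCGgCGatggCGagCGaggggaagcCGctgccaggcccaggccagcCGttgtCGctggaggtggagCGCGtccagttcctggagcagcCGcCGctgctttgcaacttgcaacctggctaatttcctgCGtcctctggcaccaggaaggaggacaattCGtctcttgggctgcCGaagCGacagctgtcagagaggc
Hoxd3: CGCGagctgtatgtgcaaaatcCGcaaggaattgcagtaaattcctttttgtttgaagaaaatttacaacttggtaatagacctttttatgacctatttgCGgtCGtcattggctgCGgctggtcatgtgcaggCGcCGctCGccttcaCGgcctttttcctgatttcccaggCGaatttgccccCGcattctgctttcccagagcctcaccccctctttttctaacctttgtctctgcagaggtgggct
Hoxa10: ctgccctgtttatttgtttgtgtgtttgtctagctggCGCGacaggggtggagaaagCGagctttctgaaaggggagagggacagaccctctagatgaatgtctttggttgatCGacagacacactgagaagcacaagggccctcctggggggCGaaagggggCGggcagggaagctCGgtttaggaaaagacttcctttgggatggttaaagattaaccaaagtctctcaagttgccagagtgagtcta
Hoxd10: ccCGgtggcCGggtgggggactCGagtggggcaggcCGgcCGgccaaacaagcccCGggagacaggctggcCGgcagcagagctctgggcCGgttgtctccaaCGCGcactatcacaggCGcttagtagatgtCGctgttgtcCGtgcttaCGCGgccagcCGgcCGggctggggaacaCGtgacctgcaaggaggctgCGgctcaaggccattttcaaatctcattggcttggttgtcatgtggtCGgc
Sox11: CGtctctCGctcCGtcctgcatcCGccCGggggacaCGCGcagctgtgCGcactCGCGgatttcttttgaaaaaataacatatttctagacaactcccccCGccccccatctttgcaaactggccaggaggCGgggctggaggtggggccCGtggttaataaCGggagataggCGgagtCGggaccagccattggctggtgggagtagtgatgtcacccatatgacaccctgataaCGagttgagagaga
Sox4: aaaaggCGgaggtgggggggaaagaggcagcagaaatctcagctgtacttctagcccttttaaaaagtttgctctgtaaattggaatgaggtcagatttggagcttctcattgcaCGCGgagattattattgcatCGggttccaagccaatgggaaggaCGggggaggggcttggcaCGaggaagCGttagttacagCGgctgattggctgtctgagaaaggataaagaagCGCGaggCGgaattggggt

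The Hoxa3 stretch (chr6:52213068-52213317, minus strand) lay wholly within a TDG peak and held 18 CG dinucleotides, while that of Hoxd3 (chr2:74711743-74711992, plus strand) held 12. The Hoxa10 stretch (chr6:52240855-52241104, minus strand) held 7 CG, the fewest of the 6, and lay 96 bases outside its peak, whereas that of Hoxd10 (chr2:74691641-74691890, plus strand), whose start was 24042 bases from the nearest TDG summit, held 20, the most. The Sox11 stretch (chr12:27342719-27342968, minus strand) held 17 and all but its last 9 bases lay in a peak, and the Sox4 stretch (chr13:28953700-28953949, minus strand) held 11 and its start was 1032488 bases from a summit. Over 17491 protein-coding genes with a RefSeq promoter, the median was 10 CG in the same 250 bases, with quartiles of 3 and 19. The Hoxa10 and Sox11 summits lay outside the counted bases, and the paralogues were picked after the values had been seen. These 6 counts therefore cannot say whether CG content and TDG summits go together. Searched on both strands, GGGCGG, the Sp1-type GC box, was present at Sox11 (2 matches) and Hoxa10 (1 match), against 42.7% of all promoters. CCAAT was present at Sox4 (4 matches), Sox11, Hoxd3 and Hoxd10 (1 match each), against 36.5% of all promoters. None of the 6 held TGACGTCA (1.98% of all promoters) or TATAAA (12.4%). The GGGCGG and TGACGTCA motifs each contain a CG. RefSeq promoters were matched for only 101 of the 151 genes (66.9%), under the 80% set for such a check, so comparisons of CpG content, of motifs and of start sites over the whole set are void and are not given.

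Hoxa3, which patterns the pharynx and hindbrain, had the strongest of the 5 peaks. Its peak (chr6:52212785-52213674) reached a fold enrichment of 7.55 over the peak caller's local background, with a −log10 q of 12.5. The summit lay 35 bases before the only RefSeq start of Hoxa3, inside the noncoding gene Hoxaas3, and 83.5% of the 2289 TDG peaks at ends of protein-coding genes had a lower fold enrichment. The annotated Hoxa3 gene is long and spans Hoxa4, Hoxa5 and Hoxa6, and the summit lay 4430 bases from Hoxa6 and 2521 bases from Hoxa7. Fold enrichments, here and below, are the authors' values for each peak and are used only within the TDG list.

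Sox11, a SoxC factor of neural progenitors, came next. Its peak (chr12:27342728-27343345) (7.29-fold, −log10 q of 11.5) had its summit 344 bases before the start. The next protein-coding gene, Cmpk2, was 863225 bases from the summit, so no other protein-coding gene shared this peak. Hoxa10, which acts in limb, uterus and blood development, had a weaker peak (chr6:52240355-52240759, 5.04-fold, −log10 q of 6.92), with the summit 343 bases inside the gene.

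Tbx2, a T-box repressor known in the melanocyte lineage, had 3 TDG peaks in or near the gene. The first (chr11:85832433-85832891) had its summit 19 bases inside the lower end of the gene and a fold enrichment of 4.87. Another lay in the gene body (chr11:85836892-85837295, 5.73-fold), and the last (chr11:85844124-85844728, 6.49-fold) lay 2344 bases past the upper end. The peak at the gene end was thus the lowest of the 3. Tbx4, the neighbour of Tbx2 on the same chromosome, had no summit nearer than 42075 bases.

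At Tbx10 the assignment rests on the window. The summit (chr19:4000309-4000587, 5.21-fold) lay 949 bases past the end of Tbx10 that is opposite to its start, but only 119 bases from Nudt8, which encodes a nudix hydrolase. Tbx10 was the member just inside the 1 kb window, and Hoxa9, at 1202 bases, was the one just outside it. When each summit was given only to the gene with the nearest end, Tbx10 dropped out and 4 genes remained.

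The median fold enrichment of the 5 peaks was 5.21, against 5.99 for all 2289 gene-end peaks (quartiles 5.14 and 6.94). Hoxa3 and Sox11 were above the upper quartile, Tbx10 was between the lower quartile and the median, and Tbx2 and Hoxa10 were below the lower quartile. With 5 peaks of 1 library, this is a description and no difference in strength was tested.

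**Figure D1:**
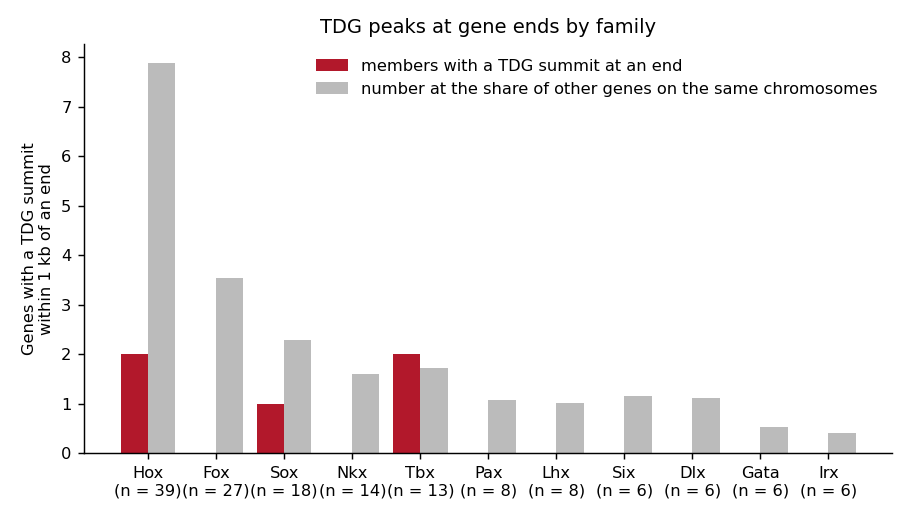
Number of genes with a TDG summit within 1 kb of an end in each of the 11 families (red) beside the number that the share among other genes on the same chromosomes would give (grey), with the family size n under each name. Only Hox, Sox and Tbx have a red bar, and only in Tbx (2 genes against 1.73) is it as high as the grey one.

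By family, the count was below the weighted number in each of the 4 largest families. Of the 39 Hox genes 2 had one (5.13%, exact binomial 95% interval 0.627 to 17.3%), where the weighted share of 20.2% gave 7.87 genes. The Hox genes lie in 4 clusters and are not independent, so this interval is too narrow to set them apart from their background. None of the 27 forkhead genes had a summit at an end (interval 0 to 12.8%), where the weighted share of 13.1% gave 3.55. The Sox family had 1 of 18 (interval 0.141 to 27.3%) against 2.29 genes (12.7%), and the Nkx family 0 of 14 (interval 0 to 23.2%) against 1.61 (11.5%), so the intervals of both held their weighted share. The Tbx family had 2 of 13 against 1.73, and 1 of those 2 was Tbx10. The Pax (8 genes), Lhx (8), Dlx (6), Gata (6) and Irx (6) families and the 6 sine oculis homeobox genes had none, but at 0.421 to 1.15 genes by the weighted share these are too small to tell 0 from their background. Without the Hox genes, 3 of 112 genes had a summit (2.68%) against a weighted 13.0%.

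Chromosomes were also taken singly. On chromosome 6, where 25.9% of other genes had a TDG summit at an end, 2 of 18 developmental genes did, and on chromosome 11, where 19.9% did, 1 of 22 did. On chromosome 15, with 23.2%, none of 10 did, and on chromosome 2, with 10.5%, none of 24 did. Chromosome 12, with 24.5%, had 1 of 9. These shares gave 4.66 genes on chromosome 6, 4.38 on 11, 2.32 on 15, 2.51 on 2 and 2.20 on 12. The HoxA, HoxB, HoxC and HoxD clusters lie on chromosomes 6, 11, 15 and 2, so these counts are not independent of the clusters. Chromosome 19 went the other way, with 1 of 5 (Tbx10) where 8% of other genes had a summit, which gave 0.4 genes.

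The 4 Hox clusters differed in how many summits they held. HoxA (chr6:52155367-52260880, 11 genes) held 4 TDG summits in 105.5 kb. HoxD (chr2:74668225-74765142, 9 genes) held 1 in 96.9 kb. HoxB (chr11:96194316-96368254, 10 genes, 173.9 kb) and HoxC (chr15:102921131-103036856, 9 genes, 115.7 kb) held none, nor did the 10 kb on either side of them. The nearest TDG summits were 118198 bases from HoxB, at Hoxb13, and 135946 bases from HoxC, at Hoxc4. For scale, HoxA held 37.9 summits per Mb against 2.90 over chromosome 6, and HoxD 10.3 against 1.16 over chromosome 2. HoxB and HoxC held 0, against 3.49 per Mb over chromosome 11 and 2.48 over chromosome 15. At those rates spans this short can hold no summit, so their 0 cannot be told from their chromosomes. At gene ends HoxA was not above its background, with 2 of 11 genes against 2.85 by the weighted share. HoxB had 0 against 1.99, HoxC 0 against 2.09 and HoxD 0 against 0.942. The clusters were set side by side after their values had been seen, and HoxA rests on 4 peaks.

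**Figure D2:**
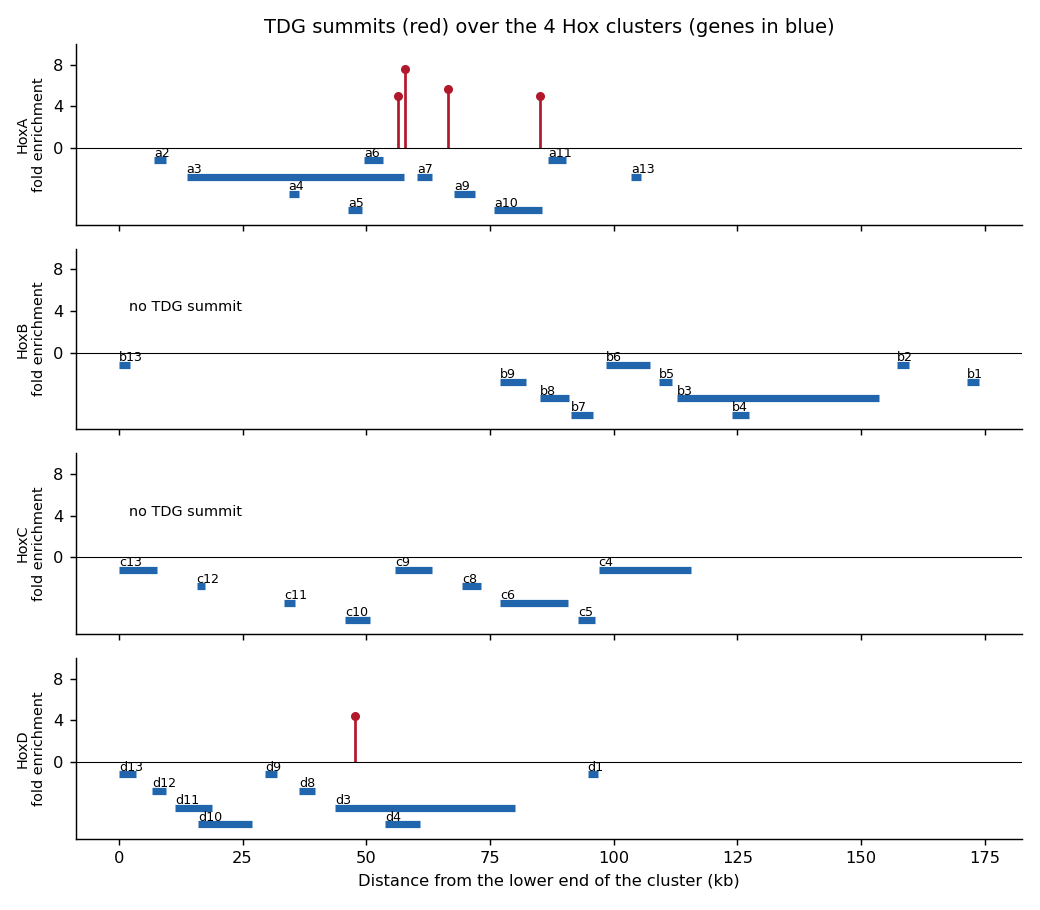
TDG summits (red stems, height is the fold enrichment) over the HoxA, HoxB, HoxC and HoxD clusters, with the genes as blue bars below the line (1 HoxA gene is not drawn) and the x axis in kb from the lower end of each cluster. The 4 HoxA summits lie between Hoxa6 and the start of Hoxa10, the HoxD summit lies inside Hoxd3, and HoxB and HoxC have none.

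Within HoxA the summits lay in the middle of the cluster. Besides the Hoxa3 and Hoxa10 peaks, 1 peak lay 1203 bases inside the Hoxa3 gene (chr6:52211266-52212125, 5.00-fold) and another between Hoxa7 and Hoxa9 (chr6:52221687-52221998, 5.66-fold), 1202 bases from the lower end of Hoxa9 and 3322 bases before the start of Hoxa7. These put Hoxa6 at 3192 bases, Hoxa7 at 2521 bases, Hoxa11 at 1594 bases and Hoxa5 at 7277 bases from a summit. Hoxa2, near the head-patterning end, was 47033 bases away, and Hoxa13 at the other end was 18342 bases away. The HoxD summit (chr2:74715776-74716075) was the weakest of all peaks near these genes, at 4.44-fold with a −log10 q of 3.68 where the list's lowest is 3.02. It lay 3940 bases inside Hoxd3, 197 bases from an end of the noncoding gene Hoxd3os1 and 6045 bases from Hoxd4.

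A wider view gave 20 genes (13.2%) with a summit within 10 kb of an end, against 18.4% of all protein-coding genes and a weighted 21.8%. Hox genes supplied 10 of the 20 (10 of 39, 25.6%, against a weighted 29.7%). HoxA had 7 of 11 (63.6%, against 35.5%) and HoxD 3 of 9 (33.3%, against 16.4%). HoxB and HoxC had 0, against 31.1% and 34.2%. The HoxA genes share 4 peaks and the HoxD genes 1, so these counts are not of independent genes. Outside Hox, 10 of the 112 genes were within 10 kb (8.93%, against a weighted 19.0%). Counting summits at an end or anywhere in the gene body gave 8 genes (5.30%), against 14.8% of all protein-coding genes and a weighted 17.8%. In the body alone 6 genes had one (3.97%, against 8.58% of all protein-coding genes). The share in the body alone was not weighted by chromosome. Neither share that counts gene bodies was matched for gene length. In all, 19 distinct TDG peaks lay within 10 kb of an end or in the body of 21 genes, and 130 genes had none. For 14 of the 19 the nearest end of a protein-coding gene was that of a developmental gene, and for 5 it was that of another gene.

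Dlx1, a homeobox gene of forebrain interneurons, had a start that the gene-end rule missed. Its peak (chr2:71529482-71529804, 5.73-fold) had the summit 230 bases inside the RefSeq start used for the promoter, though 1562 bases inside the lower end of the gene record. Dlx2, the partner of Dlx1, was 13733 bases from this summit.

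Irx5, an Iroquois homeobox gene of heart and retina, had the strongest peak near the set after that beside Foxh1. The peak (chr8:92355894-92356520) had a fold enrichment of 9.11, higher than 94.8% of gene-end peaks, and a −log10 q of 18.3. Its summit lay 1696 bases below Irx5 and 20 bases from an end of the noncoding gene Crnde, inside that gene. Irx6, in the same Iroquois cluster, was 318189 bases from that summit.

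Around forkhead, Lhx and Sox genes, 4 of the peaks lay at the end of another gene. The strongest peak near any of these genes (chr15:76659669-76660469, 10.9-fold) was 7899 bases from Foxh1, a partner of Smad proteins, but 146 bases from an end of Kifc2, a kinesin gene. The peak 9156 bases from Foxa3 (4.64-fold) was 69 bases from an end of Irf2bp1, and that 4575 bases from Lhx1 (4.64-fold) was 184 bases from an end of Aatf. Likewise, the peak 5921 bases from Sox15 (5.73-fold) was 1 base from an end of Mpdu1. Foxj2 had a summit 8790 bases before its start (6.26-fold), 9031 bases from Slc2a3. Foxk1, a broadly acting forkhead gene, had 2 summits deep in its body, at 29567 bases (6.25-fold) and 21311 bases (5.47-fold) from an end.

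**Figure D3:**
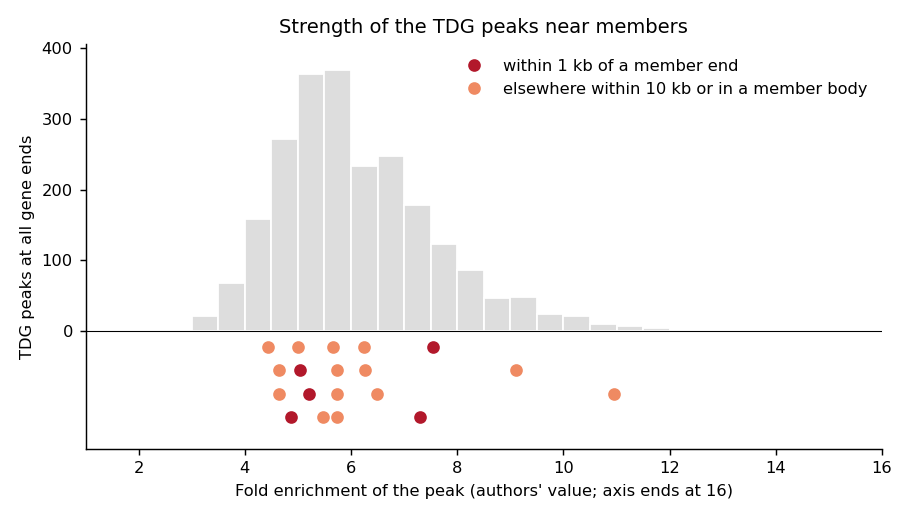
Fold enrichment of the 19 distinct TDG peaks near the developmental genes (points, red within 1 kb of a gene end, orange elsewhere within 10 kb or in the body; their height has no meaning) under the histogram of all gene-end TDG peaks, which is cut at 16. The 5 red points run from 4.87 to 7.55, and the highest point, at 10.9, is the peak near Foxh1 that lies at Kifc2.

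In the remaining families the nearest summits were farther off. The closest was 11138 bases from Nkx1-2, 20704 bases from Pax4, 46112 bases from Gata2 and 50918 bases from Six5. In all, 111 of the 151 genes had no TDG summit within 50 kb of an end, and 94 had none within 100 kb. The ratio to the other genes rose with wider windows, where both shares also rise. The shares were 2.65% against a weighted 13.2% at 500 bases and 13.2% against 21.8% at 10 kb. They were 26.5% against 36.7% at 50 kb and 37.7% against 46.6% at 100 kb, so their difference did not narrow steadily. The share of developmental genes with a summit was 0.200 times the weighted share at 500 bases, 0.386 times at 3 kb, 0.608 times at 10 kb, 0.722 times at 50 kb and 0.81 times at 100 kb. The median distance from a gene end to the nearest TDG summit was 190.4 kb for the developmental genes and 169.4 kb for the other genes, and the quartiles were 47.0 to 584.5 kb and 24.8 to 806.2 kb. Unlike the shares above, these distances were not weighted by chromosome.

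**Figure D4:**
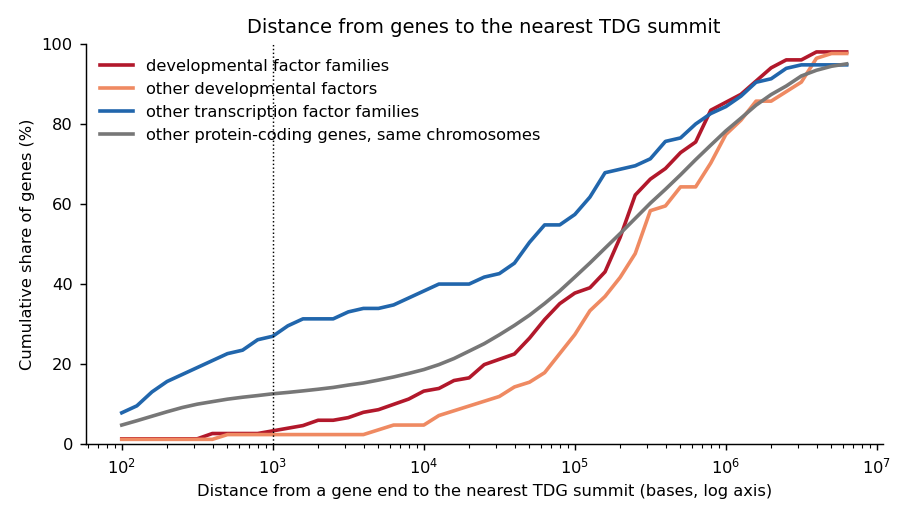
Cumulative share of genes (y axis, percent) with a TDG summit within a given distance of either end (x axis, bases, log scale) for the 151 developmental genes, other developmental factors, other transcription factor families and other protein-coding genes on the same chromosomes, with the 1 kb window dotted. At 1 kb the developmental genes stand at 3.31%, the other developmental factors at 2.38% and the other transcription factor families at 27.0%.

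Genes of other transcription factor families had TDG summits more often than the background. In a list of 115 genes of other transcription factor families (Klf, Sp, E2f, Stat, Irf, Atf, Creb, Ets-type, Mef2, Smad, Tead, Nfat and the forkhead genes Foxm to Foxs), 31 had a TDG summit at an end (27.0%, exact binomial 95% interval 19.1 to 36.0%) against a weighted 13.0%. The strongest were at Klf13 (10.4-fold), Atf5 (9.37-fold) and Sp1 (9.11-fold), genes of broadly expressed factors. That list's lower bound of 19.1% was above the 7.56% upper bound of the developmental families. Within the forkhead genes alone, Foxm to Foxs had 2 of 17, Foxm1 (6.25-fold), a driver of mitotic genes, and Foxp1 (5.54-fold), which is 11.8% (interval 1.46 to 36.4%) against a weighted 13.4% and so at its background. The 0 of 27 for Foxa to Foxl had an interval of 0 to 12.8%, which overlaps that of Foxm to Foxs.

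Further developmental regulators also had few TDG summits. Of 84 further developmental factors, such as the Neurog, Otx, Pitx, Zic, Gli and Pou genes, 2 had a TDG summit at an end (2.38%, interval 0.290 to 8.34%) against a weighted 12.2%. These were Pou2f1 (6.51-fold), which encodes the broadly expressed OCT1, and Vax2 (6.05-fold), a factor of the ventral eye. Of 65 genes of the Wnt, Fgf, Bmp, Gdf and hedgehog signals, 3 had one (4.62%, interval 0.962 to 12.90%) against a weighted 12.86%. The interval of the signal genes thus just held their weighted share. The 3 were Gdf9 (6.85-fold), Fgf11 (5.99-fold) and Dhh (4.82-fold).

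The regulators of the developmental genes were counted in the same way. Of 33 genes for Polycomb proteins, 9 had a TDG summit at an end (27.3%, interval 13.3 to 45.5%) against a weighted 15.5%, among them the histone methyltransferase genes Ezh1 (6.51-fold) and Ezh2 (5.71-fold). Trithorax genes had 3 of 16 (interval 4.05 to 45.6%) against 10.4%, with Kmt2b (5.21-fold), Psip1 (4.87-fold) and Setd1b (4.64-fold). Of 9 genes for the Hox cofactors of the Pbx, Meis and Pknox families, 2 had one (interval 2.81 to 60.0%) against 12.7%, namely Pknox1 (8.89-fold) and Meis2 (5.73-fold). The intervals of these 3 lists all held their weighted share.

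**Figure D5:**
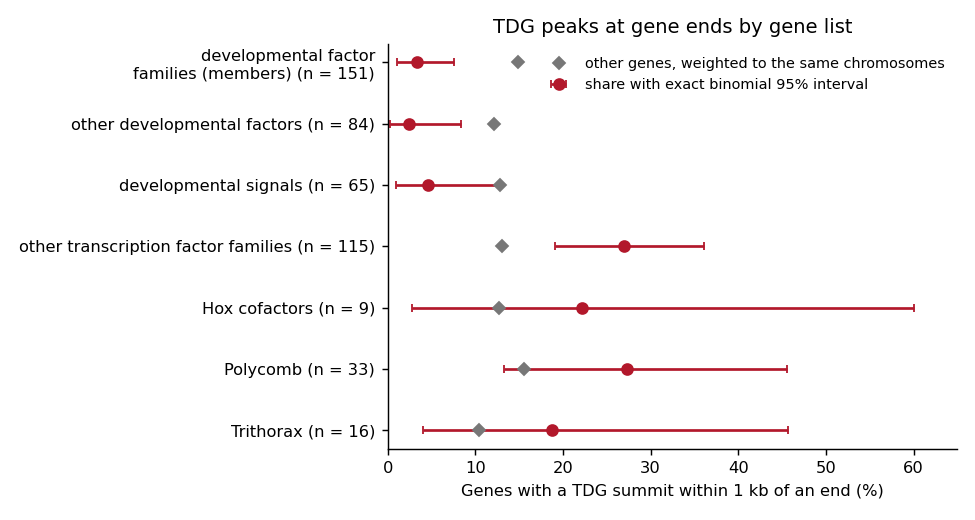
Share of genes with a TDG summit within 1 kb of an end (red points, with exact binomial 95% intervals) for the developmental families and 6 comparison lists, beside the share among other genes weighted to the same chromosomes (grey diamonds). The intervals of the developmental families and the other developmental factors lie below their diamonds, and that of the other transcription factor families lies above it.

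No developmental gene had a p53 summit within 1 kb of an end. The p53 list held 126 peaks, and 0.128% of all protein-coding genes had a p53 summit that close, which by weighted share is 0.203 of 151 genes, so a count of 0 says nothing about these genes at this list length. None had one within 50 kb either, where 1.22% of all protein-coding genes did and the weighted share gave 1.83 genes. The nearest were Nkx1-2, 129959 bases from a p53 summit (28.9-fold in the p53 list), and Tbx21, 194992 bases from one (17.9-fold). The HoxC genes lay 515202 to 612168 bases from the p53 peak at Sp1 (45.6-fold).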

How the data were processed

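ChIP-seq was analysed for 2 libraries of B16 cells with HA-tagged Tdg, 1 with the HA antibody (3410 TDG peaks) and 1 with the p53 antibody (126 peaks). Fixation was in 1% formaldehyde for 10 min and sonication to about 300 bp, per the labels' protocols. Trim Galore, Bowtie2, Picard, deepTools, MACS2, ChIPseeker and mm10 appear, per the submitters' processing notes, without roles. The sources used here do not name the control or the calling threshold. The authors deposited narrowPeak lists with a fold enrichment (a ratio to local background), −log10 p and q values and a score, which was the whole-number part of 10 times the −log10 q in 3410 of 3410 and 126 of 126 rows. The other deposited columns are positions. Library depth is unknown from these lists.

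Summits were assigned to every protein-coding gene of the RefSeq table with an end within 1 kb. The weighted share is the mean over chromosomes of the share of other genes with a summit (Sox10 and Pax3 among them), weighted by the number of developmental genes there. For each comparison list it was weighted by that list's own genes, and the other genes were those outside both the list and the developmental families. Distances were checked against a direct search on simulated peaks, and the weighting only loosely, by whether a simulated shortfall was recovered as one. Intervals are exact binomial 95% intervals. Motifs were searched in the 250 bases before the start. Computations used Python 3.11.15, pandas 2.3.3, numpy 2.4.6 and scipy 1.17.1. The members, gene lists and comparisons were chosen with earlier results of these data known, so no test was run. Every member with a gene-end summit, the 10 next nearest, the nearest of each family and the 3 strongest of each list were named, apart from a few genes not reported here, and further genes after their values were seen. The planned comparisons by promoter CpG content and by start site were not run, because too few promoters matched.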

Additional observations from a re-analysis of the deposited data

How the results depend on the processing

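The share of 3.31% lay between 1.32% (fold enrichment at or above the median) and 6.62% (3 kb window) under the alternatives with windows up to 3 kb. It was 13.2% with a 10 kb window, 26.5% with 50 kb and 37.7% with 100 kb. The ratio of 0.223 rose to 0.608 at 10 kb, 0.722 at 50 kb and 0.81 at 100 kb. Against a weighted share it was lowest, at 0.165, with fold enrichment at or above the median. Against the plain, unweighted share of the other transcription factor families alone it was 0.123. The weighted share of 14.8% itself became 13.2% at 500 bases, 17.2% at 3 kb, 21.8% at 10 kb, 13.3% with −log10 q of at least 5, 8.04% with fold enrichment at or above the median, 15.2% with any base of the peak in the window, 17.8% with gene bodies and 15.1% without the X chromosome. When only the other transcription factor families were used, their share was 27.0%, which was not weighted by chromosome. Genes with no other coding gene end within 1 kb were an alternative added after seeing the data. Among these the share of the other genes was 10.8%, with 5 of 133 developmental genes (3.76%) and a ratio of 0.348. The developmental genes stood alone in this sense more often (88.1%) than the other genes (74.7%), and the part of this in the remaining ratio was not tested. The median of the 5 gene-end peaks was 6.92 on the −log10 q scale, against 8.65 for all gene-end peaks. The comparisons by annotated start and by CpG class were not run. No paired analysis was possible because each group is 1 library and no result comes from a test. A gene without a summit is one where no peak was called at the depth of 1 library, not one shown to lack TDG.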
